A study of Mus musculus with 42 samples.

Results

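The Schlafen genes Slfn1, Slfn2, Slfn3, Slfn4, Slfn5, Slfn8 and Slfn9 form a cluster on mouse chromosome 11, and their RNA polymerase II (Pol II) occupancy and H3K27 acetylation (H3K27ac, found at promoters and enhancers in use) were followed in bone marrow-derived macrophages (BMDMs) given lipopolysaccharide (LPS, from the outer membrane of bacteria). The members were chosen by gene symbol, and they were 7 of the 21897 protein-coding genes measured. The study asked how loss of the nuclear receptor Nur77, encoded by Nr4a1, changed the response of macrophages to LPS. BMDM-WT came from wild-type littermates and BMDM-Nur77-KO from whole-body knockout mice, which were made by crossing mice with a loxP-flanked Nr4a1 to CMV-Cre mice and then breeding out Cre. The methods of the study name the strain C57Bl6/J for the CMV-Cre mice. Bone marrow came from males of 6 to 12 weeks and was cultured for 7 days in L929-conditioned medium. Cells of both genotypes were left unstimulated (0 h) or received 100 ng/ml LPS for 1 h or 18 h. Each of these 6 groups had 3 Pol II and 3 H3K27ac libraries, described as biological replicates, and 1 input library of unselected chromatin, which made 42 libraries.

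Schlafen proteins are regulators of cell growth and of antiviral defence, and many of their genes are switched on by type I interferon. Macrophages sense LPS through the receptor Tlr4, make interferon beta, and answer that interferon through the receptor subunits Ifnar1 and Ifnar2 and transcription factors such as Stat2 and Irf9. These factors bind a short element called the interferon-stimulated response element (ISRE), so genes of this class usually respond to LPS in a delayed wave. Mouse Schlafen genes differ in the length of their proteins. Slfn1 and Slfn2 encode short forms, Slfn3 and Slfn4 intermediate forms, and Slfn5, Slfn8 and Slfn9 long forms with a helicase-like part at the end.

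On the mm10 assembly the cluster began with Slfn5 on the plus strand (chr11:82951349-82964840), followed by Slfn9 (chr11:82978390-82991830) and Slfn8 (chr11:83002158-83020810), both on the minus strand. Next to Slfn8 lay the pseudogene Slfn10-ps (chr11:83028130-83040042, minus strand). The 4 other members were all on the plus strand, in the order Slfn2 (chr11:83065112-83070678), Slfn1 (chr11:83116849-83122670), Slfn4 (chr11:83175186-83190216) and Slfn3 (chr11:83191330-83215154). The end of Slfn4 was therefore little more than 1 kb from the start of Slfn3, which affects how their values can be read. Slfn14 (chr11:83275110-83286726, minus strand) closed the family on the far side.

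The 250 bases before the annotated start were searched for 4 elements on both strands, because all members gained Pol II after LPS, though at different times. These were GAAANNGAAA for an ISRE, TGAGTCA for AP-1, AAAGGTCA for the Nur77 element NBRE and GGGANTTTCC for a kappaB site. An ISRE match was present in 3 of the 7 members, against 3.04% of 27025 promoters of the same length. In Slfn5 it read GAAAAAGAAA and lay 155 to 146 bases before the RefSeq start, which is inside the gene as GENCODE places it and as it is measured here. In Slfn9 and Slfn8 the match lay on the strand opposite to the gene, 45 to 36 and 48 to 39 bases before the start, respectively. An AP-1 match was found in 1 of 7 members, Slfn4, on the opposite strand 34 to 28 bases before the start, against 4.43% of all promoters. No member held an NBRE or kappaB match in this window, which were present in 1.31% and 0.337% of promoters. A match describes the letters and does not show binding. The Slfn9 and Slfn8 promoters are printed because they had 80.2% identical bases in an alignment, whereas the other pairs of members had 45.5% to 53.4%. Those of Slfn4 and Slfn1 are printed because these 2 genes had the latest Pol II gain. All are from RefSeq on GRCm38.p6, 5′ to 3′ on the strand of the gene, with the ISRE or AP-1 match in capitals (Slfn1 held neither). Their positions are chr11:82991831-82992080 for Slfn9, chr11:83020811-83021060 for Slfn8, chr11:83174936-83175185 for Slfn4 and chr11:83116570-83116819 for Slfn1.
Slfn9: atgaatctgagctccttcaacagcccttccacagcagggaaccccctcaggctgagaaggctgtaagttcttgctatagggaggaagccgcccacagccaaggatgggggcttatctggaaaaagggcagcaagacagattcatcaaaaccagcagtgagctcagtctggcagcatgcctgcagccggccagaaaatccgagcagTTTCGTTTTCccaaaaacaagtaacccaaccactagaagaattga
Slfn8: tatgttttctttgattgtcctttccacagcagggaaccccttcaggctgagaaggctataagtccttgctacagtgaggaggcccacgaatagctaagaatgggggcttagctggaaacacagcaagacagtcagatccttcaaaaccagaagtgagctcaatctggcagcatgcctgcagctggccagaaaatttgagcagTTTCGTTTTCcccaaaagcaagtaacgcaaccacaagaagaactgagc
Slfn4: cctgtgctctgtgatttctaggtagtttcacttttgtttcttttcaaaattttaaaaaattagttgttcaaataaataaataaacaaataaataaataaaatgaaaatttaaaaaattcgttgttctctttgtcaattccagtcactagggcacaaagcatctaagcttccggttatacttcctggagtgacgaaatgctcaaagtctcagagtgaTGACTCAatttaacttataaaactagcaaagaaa
Slfn1: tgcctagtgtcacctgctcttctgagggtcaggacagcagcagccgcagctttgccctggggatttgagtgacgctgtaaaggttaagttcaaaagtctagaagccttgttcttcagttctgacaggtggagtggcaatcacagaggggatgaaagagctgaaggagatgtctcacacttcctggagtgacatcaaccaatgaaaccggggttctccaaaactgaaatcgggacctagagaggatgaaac

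Values are HOMER normalised tag counts, that is, reads in called regions per 10 M reads of the library, and a value of 0 means that no region was called there. Libraries held 21.7 to 36.1 M tags for Pol II and 13.5 to 55.4 M for H3K27ac. H3K27ac depth differed by genotype without overlap at any time. At 0, 1 and 18 h BMDM-WT held 21.4 to 23.1, 13.5 to 20.9 and 15.0 to 31.1 M. BMDM-Nur77-KO held 35.0 to 38.8, 23.6 to 47.5 and 31.3 to 55.4 M. Regions were called in each library on its own, and the part of depth in H3K27ac differences between genotypes was not tested. Pol II replicates of 1 group correlated at r = 0.985 to 0.993 over 10650 genes. Some H3K27ac libraries stood apart from the other libraries with their label. Over 10438 genes, BMDM-Nur77-KO 1 h replicate 1 correlated at r = 0.910 and 0.912 with the other 2 libraries of its group but at 0.978 to 0.980 with the BMDM-WT 1 h libraries. BMDM-Nur77-KO 18 h replicate 1 correlated at 0.913 and 0.914 with the other 2 of its group, and those 2 at 0.979 to 0.982 with the BMDM-WT 18 h libraries. Whether these libraries were exchanged with others was not tested, and their labels are used as given. H3K27ac differences between genotypes in the start windows at 1 h and 18 h, and the counts of members that responded to LPS in BMDM-Nur77-KO, are therefore given with and without these 2 libraries. Values over merged regions and the interaction at 18 h are given with them only. Pol II over Nr4a1, the targeted gene, was 188 to 208 tags in BMDM-WT and 70.2 to 87.8 in BMDM-Nur77-KO at 0 h. At 1 h it was 23.0 to 30.4 and 33.5 to 39.0, so it was not lower in BMDM-Nur77-KO at that time. At 18 h it was again called lower in BMDM-Nur77-KO (limma, log2 difference -0.49). H3K27ac at the Nr4a1 start was not called between genotypes at any time (log2 differences -0.05, 0.20 and -0.77 at 0, 1 and 18 h). The H3K27ac labels could therefore not be checked by this gene. The 6 macrophage markers examined all had Pol II in every group, while 3 T cell and 3 neutrophil markers had none, and of 3 B cell markers only Cd79a was above 0 (33.9 to 116 tags). For H3K27ac, the neutrophil marker Elane was above 0 in every library (3.35 to 45.6 tags). In such bulk samples, fewer cells of a kind and less signal per cell cannot be told apart.

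Pol II was present on 5 of the 7 members before stimulation. To compare genes, tags were summed over the gene with 500 bp on each side and divided by that length in kb. Slfn2, which keeps T cells and monocytes quiescent, had by far the highest Pol II density in unstimulated BMDM-WT, at 254 ± 18.2 tags per kb (SD, n = 3). Slfn5 and Slfn8 followed at 39.0 ± 2.61 and 38.9 ± 4.71 tags per kb and did not differ beyond their spread. Slfn9 had 14.2 ± 2.56 and Slfn3 had 8.16 ± 0.455 tags per kb. Slfn1 and Slfn4 were at 0.305 and 0.476 tags per kb, and the region around their starts (500 bp on each side) held no called Pol II region in any of the 6 unstimulated libraries. After 1 h of LPS the order in BMDM-WT was Slfn2 (884 tags per kb), Slfn5 (187), Slfn8 (109), Slfn9 (60.0), Slfn3 (25.4), Slfn1 (11.7) and Slfn4 (2.82). After 18 h Slfn1 had reached 193 ± 2.74 tags per kb, just under Slfn5 at 200.2 ± 2.64, and Slfn2 still led with 610 tags per kb.

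**Figure D1:**
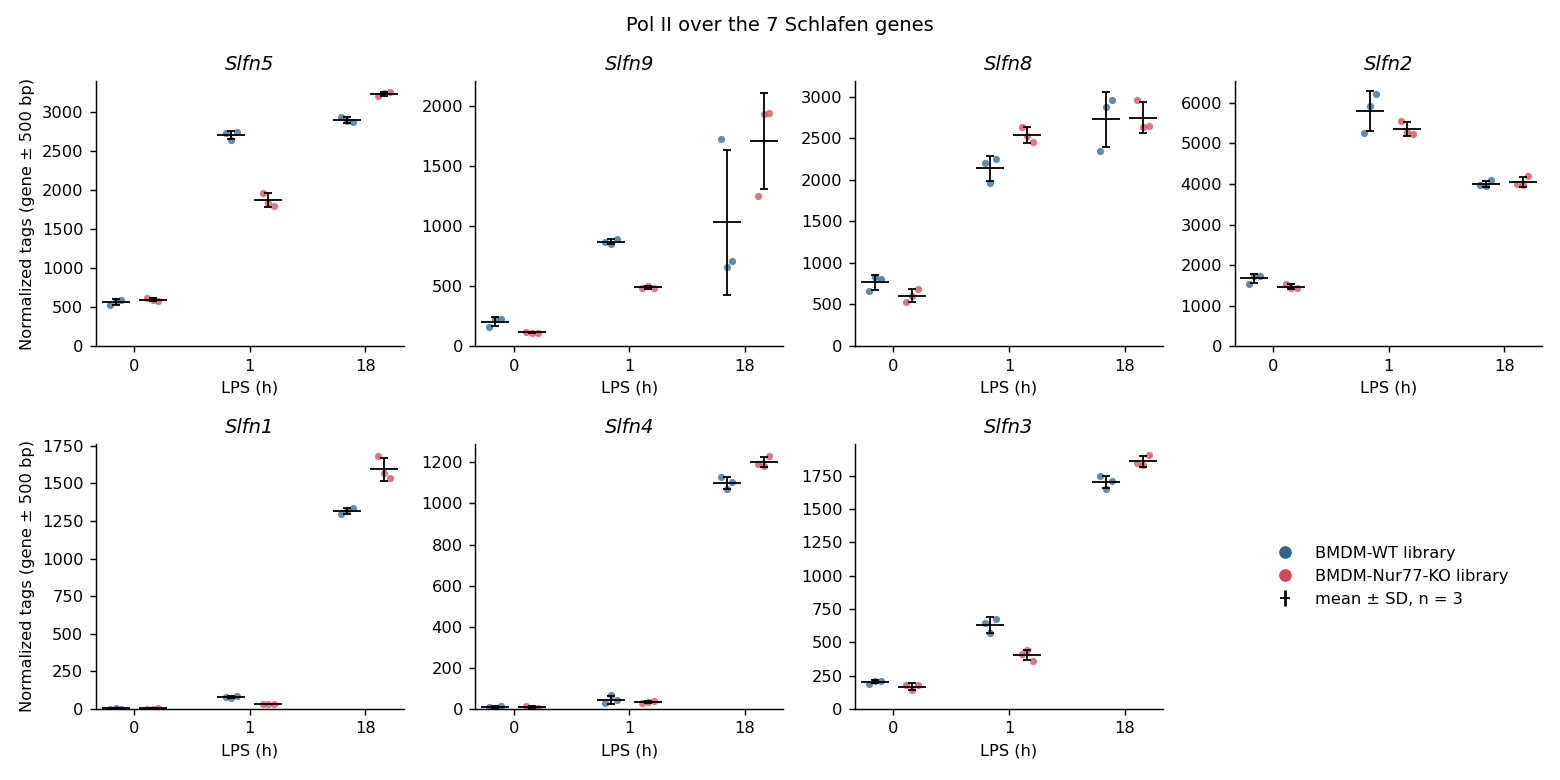
Pol II over the 7 Schlafen genes, in tags per 10 M, for each library (points) with the group mean, by LPS time and genotype. Slfn2 was highest at 1 h, whereas Slfn1 and Slfn4 were near 0 until 18 h, when their libraries held at least 1069 tags.

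The gene windows of all 7 members were called higher for Pol II in each of the 4 LPS comparisons (limma, Benjamini-Hochberg adjusted p under 0.05), although at 1 h the Slfn4 window held only the edge of the region at Slfn3. Over all genes tested, 18.6% were called higher at 1 h in BMDM-WT and 20.6% in BMDM-Nur77-KO. At 18 h these shares were 33.3% and 28.0%. Most genes moved the other way at 1 h, with a median log2 change of -0.82 in BMDM-WT and -0.62 in BMDM-Nur77-KO. The members differed in their time courses. Fold changes below are ratios of group means, and log2 changes are differences of log2(tags + 10).

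Slfn2 rose early. In BMDM-WT its gene window held 1531, 1741 and 1735 tags before LPS, 5263, 5927 and 6223 after 1 h, and 3974, 3960 and 4092 after 18 h. The 1 h libraries were all above the 18 h libraries, and both were above 0 h. The mean rose 3.48-fold at 1 h (log2 change 1.79, SE 0.0635, adjusted p = 2.9e-14), and the 18 h mean was 0.691 of the 1 h mean. BMDM-Nur77-KO had the same sequence with 1540, 1432 and 1436 tags, then 5559, 5273 and 5229, then 3999, 3972 and 4197. Slfn2 was the only member whose 18 h libraries were all below its 1 h libraries, which was the case for 19.0% of all genes in BMDM-WT and 25.4% in BMDM-Nur77-KO. The Slfn2 region extended over 26.4 kb when all libraries were merged, and its tags rose from 4385 ± 315 to 18230 ± 702 and fell to 11788 ± 301 in BMDM-WT.

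Slfn1 and Slfn4 rose late. Slfn1, a short member that restrains thymocyte growth when overexpressed, had 0, 6.25 and 0 tags before LPS in BMDM-WT, 81.0, 72.7 and 86.8 after 1 h, and 1297, 1314 and 1334 after 18 h. The 3 times did not overlap. The rise from 1 h to 18 h was 16.4-fold in BMDM-WT and 49.9-fold in BMDM-Nur77-KO. Fitted log2 changes from 0 h were 2.94 at 1 h and 6.82 at 18 h in BMDM-WT (adjusted p = 1.0e-10 and 1.8e-15), and with values this near 0 they depend on the pseudocount. Slfn4, an intermediate form that is induced in activated macrophages, had 6.62, 2.15 and 14.1 tags before LPS, 27.6, 66.0 and 42.0 after 1 h, and 1128, 1069 and 1103 after 18 h in BMDM-WT. Its tags at 0 h and 1 h came only from the edge of the region at the Slfn3 start, which covered 0.281% to 3.48% of the Slfn4 window. Around the Slfn4 start itself the value was 0 in all 12 libraries at 0 h and 1 h and 66.8 to 76.8 tags at 18 h. The input libraries at 1 h had 37.5 and 38.1 tags in the Slfn4 window, so that the 1 h values were 1.20 and 0.847 times input in BMDM-WT and BMDM-Nur77-KO.

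Slfn3, which lies next to Slfn4 and is known from T cells and gut epithelium, rose at 1 h, and its gene window held more Pol II at 18 h. Its BMDM-WT libraries had 190, 206 and 212 tags before LPS, 649, 566 and 675 after 1 h, and 1746, 1656 and 1709 after 18 h. The mean rose 3.11-fold at 1 h and 8.41-fold at 18 h against 0 h. At 18 h Slfn4 and Slfn3 were covered by 1 continuous called region of 59.7 to 61.6 kb in all 6 libraries. Tags within a region are shared evenly here, so both genes necessarily had the same density at 18 h (68.6 tags per kb in BMDM-WT and 74.9 in BMDM-Nur77-KO), and their 18 h values are a single measurement.

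In BMDM-WT the gene windows of the long members Slfn5, Slfn8 and Slfn9 rose at 1 h. At 18 h Slfn5 and the mean of Slfn8 were higher still in these windows. Slfn5, a nuclear interferon-inducible member, went from 522, 579 and 594 tags at 0 h to 2739, 2650 and 2751 at 1 h and 2945, 2889 and 2872 at 18 h in BMDM-WT, with all 18 h libraries above all 1 h libraries. This was a 4.80-fold rise at 1 h and a 5.13-fold rise at 18 h. Slfn8 rose 2.79-fold at 1 h and 3.57-fold at 18 h, and Slfn9 4.24-fold and 5.04-fold. The called region over Slfn8 in BMDM-WT was 31.1 to 35.1 kb long at 1 h and 55.0 to 76.7 kb at 18 h. The whole merged region, which also holds Slfn9 and Slfn10-ps, had 9373 ± 211 tags at 1 h and 9156 ± 176 at 18 h. The later rise over the Slfn8 window was not seen there. The Slfn9 value at 18 h rested on BMDM-WT replicate 1, which had 1726 tags, whereas the other 2 libraries (660 and 704) were below every 1 h library. Without replicate 1 of every group the fitted log2 change of Slfn9 was 1.90 at 1 h and 1.55 at 18 h, against 2.05 and 2.15 with it. In BMDM-Nur77-KO, Slfn9 went from 486, 501 and 480 tags at 1 h to 1246, 1934 and 1940 at 18 h, when its region also ran over Slfn8. From 1 h to 18 h, 5 of 7 members were higher without overlap of the libraries in each genotype, against 66.3% of all genes in BMDM-WT and 56.2% in BMDM-Nur77-KO, so the share among the members was near that of all genes.

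**Figure D2:**
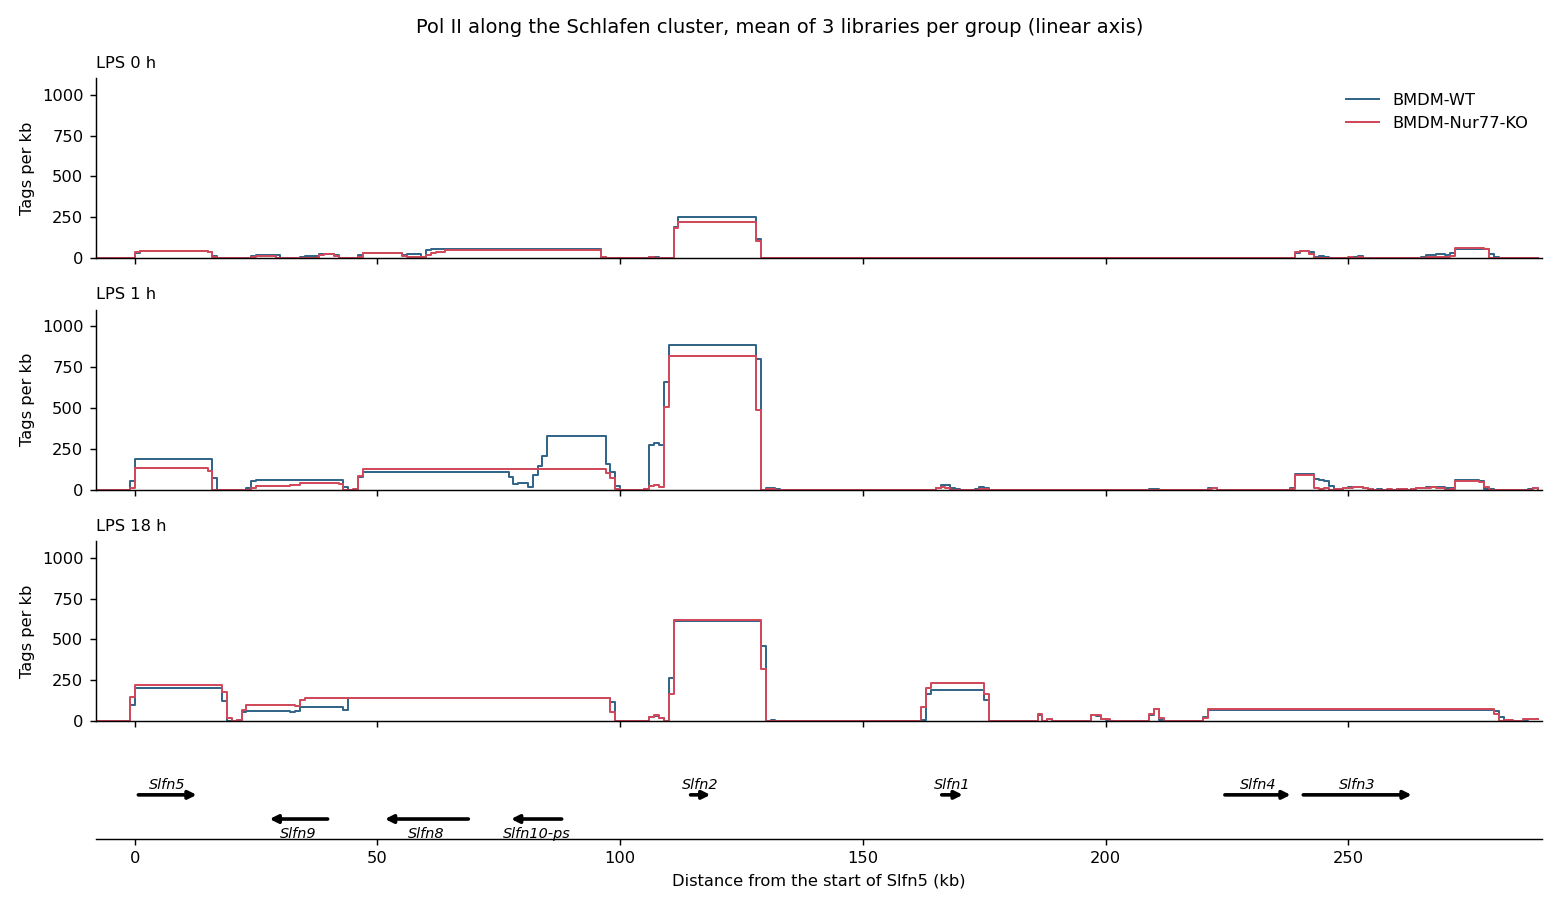
Mean Pol II density along the Schlafen cluster in tags per kb (linear axis) against distance from the Slfn5 start in kb, for each LPS time and genotype, with gene positions drawn below. Tags are shared evenly within each called region, so the profile is flat inside a region; regions over Slfn1 and over Slfn4 and Slfn3 appear fully only at 18 h.

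Before stimulation, Pol II over the members did not pass the test between genotypes. None of the 6 members tested was called by limma (6.96% of all genes were called in either direction), although 4 had an unadjusted p under 0.05. These were Slfn9, Slfn8, Slfn2 and Slfn3, all lower in BMDM-Nur77-KO, with log2 differences of -0.79, -0.33, -0.18 and -0.27 and adjusted p from 0.071 to 0.11. Slfn9 and Slfn3 were lower in all 3 BMDM-Nur77-KO libraries than in any BMDM-WT library, whereas such separation was found for 6.94% of all genes. Slfn5 differed by 0.08 (95% confidence interval -0.03 to 0.20). Slfn1 was not tested at 0 h, since only 1 library of each genotype was above 0. With each library centred on the median of all genes, Slfn8, Slfn2 and Slfn3 were called lower (log2 differences -0.36, -0.21 and -0.30), where 4.01% of all genes were. Over the 12 settings tried, Slfn9 was called in 2 (log2 differences from -0.98 to -0.09), Slfn8 and Slfn2 in 3 each and Slfn3 in 1.

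At 1 h of LPS, 4 of the 7 members had less Pol II in BMDM-Nur77-KO, namely Slfn5, Slfn9, Slfn1 and Slfn3. This stood against 7.49% of all genes called lower and 38.2% called higher, and against a median difference over all genes of 0.24 on the log2 scale. No member was called higher. The summed Pol II of the 6 macrophage markers at 1 h was 26250 to 26970 tags in BMDM-WT and 16630 to 17260 in BMDM-Nur77-KO, and 3 of these markers were called lower and 1 higher. Adgre1 weighed most in such sums. Over the 18 Pol II libraries its mean was 15750 tags, against 537 to 3046 for the other markers. The part of the marker difference in the Schlafen result was not tested. With each library centred on its median, 5 members were lower, with Slfn2 added at -0.36, and so were 21.2% of all genes.

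Slfn5 had 2739, 2650 and 2751 tags in BMDM-WT and 1972, 1841 and 1800 in BMDM-Nur77-KO at 1 h. The groups did not overlap, a pattern that the 4 called members shared with 10.6% of all genes, and the BMDM-Nur77-KO mean was 0.690 of the BMDM-WT mean (log2 difference -0.53, SE 0.0545, adjusted p = 1.1e-06). The LPS response itself differed between genotypes, with a genotype by LPS interaction of -0.61 (SE 0.0771, adjusted p = 4.8e-05). For the interaction at 1 h 18.4% of all genes were called. Both Slfn5 results passed the threshold under all 12 settings tried, which include the whole merged region, where the difference was -0.57 (adjusted p = 1.3e-06).

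Slfn1 was at 81.0, 72.7 and 86.8 tags in BMDM-WT and 30.7, 33.9 and 31.2 in BMDM-Nur77-KO. All BMDM-Nur77-KO libraries were lower, and the ratio of means was 0.398 (log2 difference -1.10, SE 0.187, adjusted p = 2.0e-04). The call was lost in 1 of 12 settings, a pseudocount of 1 (-1.30, adjusted p = 0.15), and in the 500 bp start window the difference was -0.37 (adjusted p = 0.047). Its interaction at 1 h was -1.11 (adjusted p = 0.0080), and it passed in 7 of 12 settings. These are small signals, since the inputs held 17.9 and 14.4 tags in the same window.

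Slfn3 had 649, 566 and 675 tags in BMDM-WT and 413, 441 and 360 in BMDM-Nur77-KO at 1 h. The libraries did not overlap and the ratio of means was 0.642 (log2 difference -0.63, SE 0.0982, adjusted p = 9.9e-05). It passed in 11 of 12 settings, and in the 500 bp start window it was -0.06 (adjusted p = 0.79). Its interaction at 1 h missed the threshold (-0.35, adjusted p = 0.087). Slfn9 had 863, 849 and 889 tags against 486, 501 and 480, a ratio of 0.564 without overlap (log2 difference -0.81, SE 0.257, adjusted p = 0.017). It passed in 8 of 12 settings, and not with no filter (adjusted p = 0.064), without replicate 2 or 3 (adjusted p = 0.095 and 0.12) or in the 500 bp start window, where the difference was -0.41 (adjusted p = 0.10). Over the merged region it was -0.35. The interaction of Slfn9 at 1 h was -0.03 (95% confidence interval -0.80 to 0.74), and its ratio between genotypes at 0 h was 0.553, so that the difference at 1 h was of the size already seen without LPS.

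Slfn2 and Slfn4 did not pass at 1 h. Slfn2 differed by -0.11 (95% confidence interval -0.25 to 0.02), and its libraries overlapped. Slfn8 was the exception in direction, with 2201, 1965 and 2243 tags in BMDM-WT and 2639, 2522 and 2452 in BMDM-Nur77-KO. All BMDM-Nur77-KO libraries were higher (45.8% of all genes had this pattern), the difference of 0.25 missed the threshold (adjusted p = 0.063), and the interaction of 0.58 passed (SE 0.149, adjusted p = 0.013, but 0.36 and adjusted p = 0.057 after centring). This interaction passed in 7 of 12 settings, with values from -0.14 to 0.69. The sign was not the same when whole merged regions were read. The called region over Slfn8 at 1 h was 31.1 to 35.1 kb long in BMDM-WT and 50.8 to 52.7 kb in BMDM-Nur77-KO, and 56.0% to 63.2% of its tags fell in the Slfn8 window in BMDM-WT against 37.3% to 38.7%. With the whole merged region the difference was -0.35 (adjusted p = 6.8e-05) and the interaction -0.14 (adjusted p = 0.23). This merged region also holds Slfn9 and Slfn10-ps, so the change of sign cannot be assigned to Slfn8 alone.

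At 18 h, Pol II over 2 members was higher in BMDM-Nur77-KO, where 7.58% of all genes were called higher and 13.5% lower. Slfn5 had 2945, 2889 and 2872 tags in BMDM-WT and 3208, 3247 and 3262 in BMDM-Nur77-KO, a ratio of 1.12 without overlap (log2 difference 0.16, SE 0.0545, adjusted p = 0.048). This call was near the threshold and passed in 8 of 12 settings. It was lost with the replicate block (adjusted p = 0.073), without replicate 2 or 3 (adjusted p = 0.27 and 0.24) and in the 500 bp start window (adjusted p = 0.58). Slfn9 had 1726, 660 and 704 tags in BMDM-WT and 1246, 1934 and 1940 in BMDM-Nur77-KO. Its groups overlapped, since BMDM-WT replicate 1 was higher than 1 BMDM-Nur77-KO library (log2 difference 0.84, SE 0.257, adjusted p = 0.027). In that replicate and in the 3 BMDM-Nur77-KO libraries a region of 64.3 to 76.7 kb ran from Slfn9 over Slfn8, and in BMDM-Nur77-KO replicate 1 another region also covered a part of Slfn9. In BMDM-WT replicates 2 and 3 the Slfn9 window held 2 regions each, neither of which reached Slfn8. The difference was 1.49 without replicate 1 of every group (adjusted p = 1.6e-06), and it was not called without replicate 2 or 3 (0.49 and 0.53, adjusted p = 0.40 and 0.41). The interaction of Slfn9 at 18 h was 1.63 (SE 0.363, adjusted p = 0.0059), and 14.8% of all genes were called for it. It passed in 9 of 12 settings and ranged from 0.37 over the merged region to 2.47 without replicate 1. It was lost without replicate 2 or 3 (1.19 and 1.22, adjusted p = 0.17 and 0.19) and in the 500 bp start window (0.80, adjusted p = 0.12). Slfn1, Slfn4 and Slfn3 were also higher in all 3 BMDM-Nur77-KO libraries, so that with Slfn5 4 of 7 members were apart against 14.0% of all genes, but none of the 3 passed and Slfn4 and Slfn3 are 1 measurement at this time. Slfn1 had 1297, 1314 and 1334 tags against 1680, 1567 and 1535 (log2 difference 0.27, adjusted p = 0.32). Slfn2 differed by 0.02 (95% confidence interval -0.12 to 0.15) and Slfn8 by 0.01 (-0.21 to 0.24). Macrophage markers at 18 h summed to 37490 to 38100 tags in BMDM-WT and 31860 to 33020 in BMDM-Nur77-KO. Of these 6 markers 4 were called lower and 1 higher, whereas the 2 called Schlafen genes were higher. The inputs also differed, with 58.4 to 238 tags in the gene windows of the members in BMDM-WT and 0 to 26.7 in BMDM-Nur77-KO at 18 h. The part of either was not tested.

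**Figure D3:**
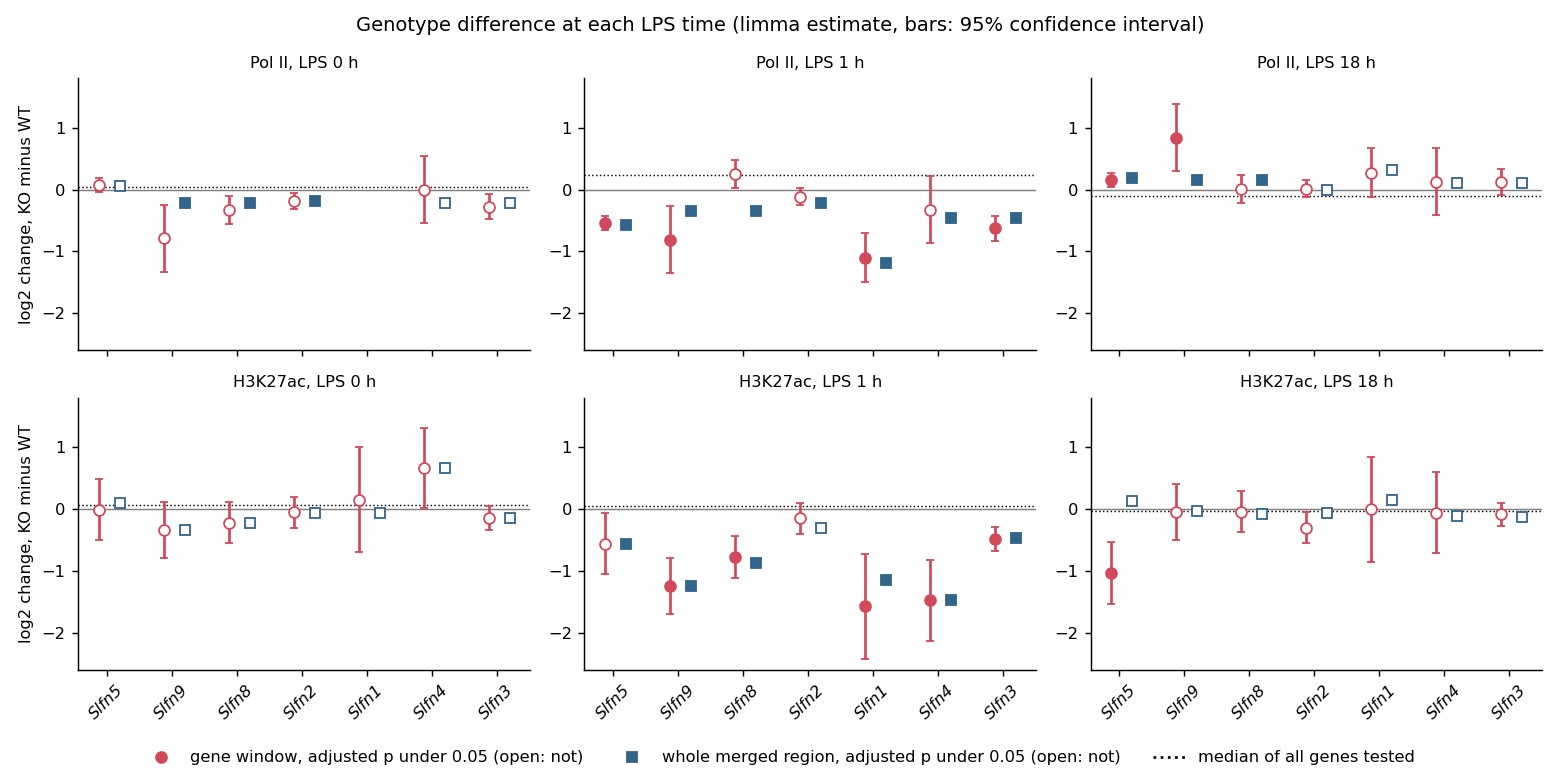
Difference between BMDM-Nur77-KO and BMDM-WT on the log2(tags + 10) scale for each Schlafen gene, antibody and time, with 95% confidence intervals (circles, gene window, filled where the adjusted p was under 0.05; squares, whole merged region; dotted line, median of all genes tested). Pol II of Slfn5, Slfn9, Slfn1 and Slfn3 lay below 0 at 1 h, and Slfn8 changed sign between the gene window and the merged region.

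Because the edges of called regions moved between libraries, the cluster was also read as 5 merged Pol II regions, an analysis added after the data had been seen. At 1 h all 5 were lower in BMDM-Nur77-KO, where 51.8% of all merged regions were called in either direction. The Slfn5 region (chr11:82950617-82970577) held 3161 ± 149 tags in BMDM-WT and 2122 ± 107 in BMDM-Nur77-KO. The region of Slfn9, Slfn8 and Slfn10-ps (chr11:82973207-83050561) held 9304, 9205 and 9610 tags against 7446, 7408 and 7155 (log2 difference -0.35, SE 0.0527, adjusted p = 6.8e-05). The Slfn2 region (chr11:83057214-83083585) differed by -0.21 (adjusted p = 0.0020), the Slfn1 region (chr11:83113587-83127135) by -1.18 (adjusted p = 0.0032), and the region of Slfn4 and Slfn3 (chr11:83171899-83233559) by -0.45 (adjusted p = 1.1e-04). At 0 h the Slfn9 to Slfn10-ps region and the Slfn2 region were already lower (log2 differences -0.22 and -0.18, adjusted p = 0.015 and 0.028), and 15.2% of all merged regions were called. At 18 h the Slfn5 region and the Slfn9 to Slfn10-ps region were higher, with differences of 0.19 (adjusted p = 0.022) and 0.15 (adjusted p = 0.044), and 30.0% of all merged regions were called. Among the interactions, called for 14.6% of all merged regions at 1 h and 13.7% at 18 h, that of Slfn5 at 1 h (-0.62, adjusted p = 9.9e-05) was called, as were those of the Slfn9 to Slfn10-ps region (0.37, adjusted p = 0.0032) and the Slfn4 and Slfn3 region (0.32, adjusted p = 0.048) at 18 h. The interactions at 1 h and 18 h share the 0 h libraries.

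H3K27ac within 2.5 kb of the gene starts rose with LPS at both times and in both genotypes on Slfn5, Slfn9, Slfn8, Slfn1 and Slfn3. Slfn4 rose in BMDM-WT and at 18 h in BMDM-Nur77-KO, and Slfn2 was not called. In BMDM-WT 6 of 7 members were called higher at each time, where 25.3% (1 h) and 23.5% (18 h) of all genes were. In BMDM-Nur77-KO it was 5 of 7 at 1 h and 6 of 7 at 18 h, where 20.4% and 18.4% of all genes were. The Slfn4 value at 1 h there was 0.10 (adjusted p = 0.82). Without BMDM-Nur77-KO 1 h replicate 1 the count at 1 h was 3 of 7, against 23.1% of all genes, since Slfn5 (0.62, adjusted p = 0.056) and Slfn1 (1.07, adjusted p = 0.061) were lost. Without BMDM-Nur77-KO 18 h replicate 1 the count at 18 h was 6 of 7, against 18.1%, but the Slfn5 call at 18 h (0.58, adjusted p = 0.046) passed in only 9 of 14 settings. These windows have the same length for every gene. Slfn2 had the highest acetylation of the members at 0 h, with 1401, 1545 and 1502 tags in BMDM-WT, against 514 tags or fewer for any other member. Its start window changed by 0.22 at both times in BMDM-WT (adjusted p = 0.13 at each), with a confidence interval of -0.03 to 0.47. The acetylated region around it widened from 7.18 to 7.62 kb at 0 h to 14.9 to 16.6 kb at 1 h in BMDM-WT, and over the whole merged region the tags rose from 2921 ± 54.5 to 6594 ± 342 and 6903 ± 248 (log2 changes 1.17 and 1.24, adjusted p = 2.8e-06 and 1.4e-06). Slfn1 and Slfn4 again rose most and latest. Slfn1 had 31.8, 13.2 and 0 tags before LPS, 174, 143 and 157 after 1 h and 944, 707 and 755 after 18 h in BMDM-WT, with no overlap between the times. Slfn4 had 0, 7.35 and 11 tags, then 70.2, 58.5 and 59.6, and then 455, 497 and 380. Slfn9 reached its level at 1 h (920, 916 and 975 tags) and was slightly lower at 18 h (845, 856 and 842). Slfn5 rose from 330 ± 58.9 tags to 831 ± 68.0 and 1017 ± 40.2.

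**Figure D4:**
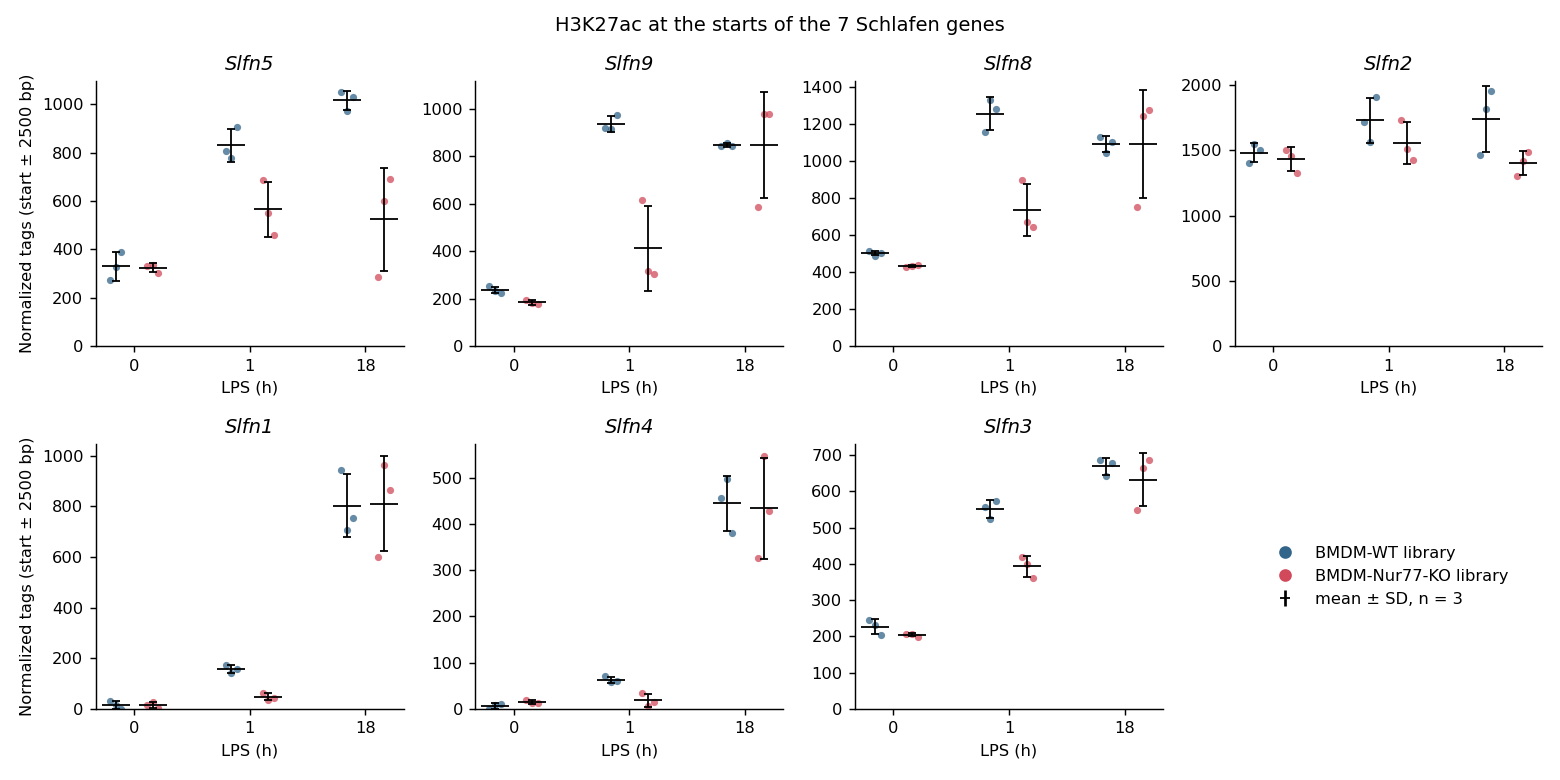
H3K27ac within 2.5 kb of the start of the 7 Schlafen genes, in tags per 10 M, for each library (points) with the group mean, by LPS time and genotype. At Slfn9 in BMDM-Nur77-KO, replicate 1 lay away from the other 2 libraries, with 618 against 316 and 302 tags at 1 h and 588 against 977 and 977 at 18 h.

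Without LPS, H3K27ac of the members did not pass between genotypes. None of 7 was called by limma (0.77% of all genes were), and 1, Slfn4, had an unadjusted p under 0.05 at values of 18.4 tags or fewer. At 1 h, 5 of 7 members were lower in BMDM-Nur77-KO, where 7.41% of all genes were called lower. These were Slfn9 (log2 difference -1.25, SE 0.213, adjusted p = 0.0022), Slfn8 (-0.78, adjusted p = 0.0060), Slfn1 (-1.57, adjusted p = 0.017), Slfn4 (-1.47, adjusted p = 0.0067) and Slfn3 (-0.48, adjusted p = 0.0038). Slfn9 and Slfn3 passed in 11 of 14 settings, Slfn8 and Slfn4 in 10 and Slfn1 in 9. With a pseudocount of 1 the count was 3. Without replicate 2 or replicate 3 of every group no member was called, and over all genes only 38 and 29 were. Slfn5 differed by -0.56 and missed the threshold (adjusted p = 0.097), and over its merged region by -0.56 with an adjusted p of 0.0029. Over merged regions the other 5 members were again called lower, Slfn2 was not (-0.30, adjusted p = 0.10), and 34.0% of all merged regions were called in either direction. The macrophage markers summed to 3312 to 3535 H3K27ac tags in BMDM-WT and 3542 to 4466 in BMDM-Nur77-KO at 1 h, with 3 of 6 called higher. The neutrophil marker Elane was also called higher in BMDM-Nur77-KO (log2 difference 0.86). The part of either was not tested.

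The libraries show how this rested on the replicates. Slfn9 had 920, 916 and 975 tags in BMDM-WT and 618, 316 and 302 in BMDM-Nur77-KO. Slfn8 had 1157, 1330 and 1281 against 896, 670 and 643, and Slfn3 had 556, 523 and 572 against 419, 398 and 360. Slfn1 had 174, 143 and 157 tags against 61.9, 36.3 and 43.7. In these genes, and in Slfn4 and Slfn5, all 3 BMDM-Nur77-KO libraries were below all BMDM-WT libraries, which makes 6 of 7 members against 13.0% of all genes. In each of these 6, replicate 1 lay nearest to BMDM-WT, and this is the library that resembled BMDM-WT 1 h genome-wide. With replicate 1 as the sole BMDM-Nur77-KO 1 h library no member was called (adjusted p from 0.15 to 0.99), where 1.09% of all genes were called lower, the 6 were still lower (log2 differences -0.27 to -1.22), and the lone library was assumed to vary like the other groups. With replicate 1 left out, all 6 were called, with differences from -0.53 at Slfn3 to -1.85 at Slfn4, and 18.4% of all genes were then called lower. The direction of the 6 was the same with and without that library, while their sizes and calls were not.

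The interaction of genotype and LPS on H3K27ac at 1 h was called for Slfn4 alone (-2.14, SE 0.434, adjusted p = 0.037), where 0.543% of all genes were called. Slfn4 rose from 6.12 ± 5.603 to 62.8 ± 6.47 tags in BMDM-WT and from 14.6 ± 3.45 to 18.2 ± 13.9 in BMDM-Nur77-KO. These values are low, and the call was lost in 9 of 14 settings, with a pseudocount of 1 among them. Without BMDM-Nur77-KO 1 h replicate 1, 5 of 7 members were called for this interaction, as were 29.9% of all genes. At 18 h no interaction was called by limma for the members (0.63% of all genes were), and 1 member, Slfn5, had an unadjusted p under 0.05.

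At 18 h the H3K27ac start window was lower in BMDM-Nur77-KO for 1 of 7 members, Slfn5, where 2.29% of all genes were called lower. Slfn5 had 1050, 972 and 1030 tags in BMDM-WT and 285, 601 and 690 in BMDM-Nur77-KO, without overlap (log2 difference -1.03, SE 0.233, adjusted p = 0.022). Without BMDM-Nur77-KO 18 h replicate 1 it was -0.65 (adjusted p = 0.021). The called region at Slfn5 was 4.51 to 5.54 kb long in BMDM-WT and 8.97 to 19.8 kb in BMDM-Nur77-KO, so a smaller share of its tags fell in the window. Over the whole merged region the tags were 1818, 1794 and 1934 against 1888, 2080 and 2125, and the difference was 0.13 (adjusted p = 0.48). For Slfn9, Slfn8, Slfn1, Slfn4 and Slfn3, whose differences at 18 h lay between -0.09 and 0, the sign changed without BMDM-Nur77-KO replicate 1. Slfn2 stayed lower, at -0.30 with it and -0.25 without (adjusted p = 0.17 and 0.29). Slfn9 had 845, 856 and 842 tags in BMDM-WT and 588, 977 and 977 in BMDM-Nur77-KO, and without that replicate the difference moved from -0.04 to 0.20, not called in either case. Slfn8 moved from -0.04 to 0.21 in the same way. With replicate 1 of every group left out, both were called higher (0.20 and 0.23, adjusted p = 0.047 and 0.038), where 3.21% of all genes were. The macrophage markers summed to 4738 to 4948 H3K27ac tags in BMDM-WT and 3662 to 4199 in BMDM-Nur77-KO at 18 h.

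The pseudogene Slfn10-ps shared its called Pol II region with Slfn8 in BMDM-Nur77-KO at 1 h and in both genotypes at 18 h, and so had the same density there. At 0 h its density was higher than that of Slfn8, at 53.6 against 38.9 tags per kb in BMDM-WT and 50.3 against 30.9 in BMDM-Nur77-KO, and at 1 h in BMDM-WT it was 164 against 109. Its Pol II was 692 ± 66.4, 2112 ± 300 and 1793 ± 218 tags at 0, 1 and 18 h in BMDM-WT and 649 ± 48.3, 1667 ± 62.0 and 1802 ± 122 in BMDM-Nur77-KO. It is no protein-coding gene and was not in the fit over genes. Its H3K27ac lay in a merged region of its own (chr11:83036337-83050561), with 5713, 5715 and 5981 tags in BMDM-WT and 5704, 4073 and 3801 in BMDM-Nur77-KO at 1 h (log2 difference -0.38, adjusted p = 0.042), where replicate 1 was again nearest to BMDM-WT. Slfn14 went the other way, with Pol II of 1876 ± 173 tags at 0 h, 1086 ± 148 at 1 h and 0 in all 3 libraries at 18 h in BMDM-WT, and 1862 ± 508, 1191 ± 164 and 0 in BMDM-Nur77-KO. H3K27ac at the Slfn14 start was 0 in 17 of 18 libraries. Unc45b on the Slfn5 flank, a myosin chaperone of muscle, had no Pol II in any library, and H3K27ac of up to 27.4 tags. Neither Slfn14 nor Unc45b gained Pol II after LPS in these libraries. Parts of the members are close copies of other sequence in the cluster. Of 50-base words in the gene windows, 9.50% in Slfn9, 6.18% in Slfn8 and 5.86% in Slfn3 also occurred elsewhere in the cluster, so reads there could be placed on more than 1 gene, against 0.0623% in Slfn5.

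The interferon pathway was read on the same scale for 24 genes in 4 lists by role. All 9 interferon target genes in the fit (Ifit1, Ifit2, Ifit3, Isg15, Rsad2, Mx1, Oasl1, Cmpk2 and Cxcl10) gained Pol II in the 4 LPS comparisons, as did all 4 induced regulators (Irf1, Irf7, Usp18 and Socs1), against the 18.6% to 33.3% of all genes given above. Between genotypes at 1 h, 5 of 9 targets, 3 of 4 regulators and 3 of 7 receptor and signalling genes had less Pol II in BMDM-Nur77-KO and none had more, against 7.49% of all genes lower and 38.2% higher. At 18 h, 3 of 9 targets had more Pol II in BMDM-Nur77-KO and none had less (7.58% and 13.5% of all genes). At 0 h 3 targets and 3 of 4 regulators were already lower and 1 target higher, where 6.96% of all genes were called in either direction. The chemokine gene Cxcl10 had 48.3, 51.2 and 55.9 tags in BMDM-WT and 15.3, 18.7 and 0 in BMDM-Nur77-KO, while Oasl1 had 7.58, 14.9 and 12.0 against 21.0, 20.6 and 20.7. Of the 4 sensing and induction genes (Tlr4, Ticam1, Irf3 and Ifnb1), 2 were higher at 1 h and none lower, and Tlr4 had 452, 432 and 418 tags against 567, 527 and 531. Ifnb1, the interferon beta gene, had 161, 259 and 256 tags in BMDM-WT and 249, 253 and 313 in BMDM-Nur77-KO at 1 h, and at 18 h it was listed at 0 in BMDM-WT and had 9.54, 5.96 and 22.9 tags in BMDM-Nur77-KO. Ifnar1 was lower in BMDM-Nur77-KO at 18 h, with 1512, 1503 and 1381 tags against 1800, 1708 and 1877. The median difference at 1 h was -0.52 for the targets, -0.67 for the regulators, -0.23 for receptor and signalling genes and 0.26 for sensing and induction genes, against 0.24 for all genes.

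H3K27ac of the same lists at 1 h was lower in BMDM-Nur77-KO for 4 of 9 targets, 3 of 4 regulators and 1 of 7 receptor and signalling genes, and 1 of the 4 sensing and induction genes was higher. Of all genes, 7.41% were lower and 11.1% higher. These counts also rested on BMDM-Nur77-KO 1 h replicate 1. Without it 9 of 9 targets, 3 of 4 regulators, 2 of 7 receptor and signalling genes and 2 of 4 sensing and induction genes were lower, with 1 and 2 of these last lists higher (18.4% of all genes were lower and 27.3% higher), and with it as the sole library of its group 0, 1, 1 and 0 were, with 1.09% of all genes. Early LPS genes (Tnf, Cxcl2, Ccl3, Nfkbia, Tnfaip3 and Egr1) had less Pol II in BMDM-Nur77-KO at 1 h for 4 of 6 genes and more for 1, against 7.49% and 38.2% of all genes, and at 0 h the counts were the same, where 6.96% of all genes were called.

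The genes whose Pol II pattern was closest to each member were taken by Pearson correlation of log2 values over the 18 libraries, among 11398 genes. For Slfn2 these were Socs3 (r = 0.997), which brakes cytokine signalling, and Abr (r = 0.994). For Slfn3 they were Dhx58 (r = 0.995), an RNA sensor of the antiviral response, and Arel1 (r = 0.995). Slfn1, above 0 in 14 libraries, was closest to Adar (r = 0.997), an RNA-editing enzyme, and Phf11b (r = 0.995). Slfn4 was closest to Plgrkt (r = 0.992), Slfn5 to Ttll12 (r = 0.995) and Hspbap1 (r = 0.994), Slfn8 to Rgl1 (r = 0.989) and Rala (r = 0.986), and Slfn9 to Acsl1 (r = 0.959) and Usp12 (r = 0.958). Among the members themselves, r ranged from 0.488 between Slfn2 and Slfn4 to 0.989 between Slfn1 and Slfn3. These values describe 18 libraries in 6 groups that share the LPS times, and no test was made of them.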

How the data were processed

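RNA polymerase II and H3K27ac were measured by ChIP-seq in 36 libraries of 6 groups (genotype by LPS time, 3 libraries each), with 1 input per group. Before deposit, the authors used Skewer for trimming and HISAT2 2.1.0 for alignment to mm10, and they called regions per library with HOMER in its histone style (500 bp windows, Poisson p 0.001, windows within 1000 bp stitched) without input as control. Nothing was pooled. The deposited values are a normalised signal, that is, tags in a region per 10 M tags of the library, and they are not counts. A gene without a region has the value 0, which does not mean that no reads were there, and intervals for single values cannot be given.

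Each region's signal was shared by overlap over the gene (GENCODE vM21, 500 bp on each side) for Pol II and over 2500 bp on each side of the start for H3K27ac, for 21897 protein-coding genes (54 rows with a duplicated symbol were left out, as was Mx2, which the annotation used here does not list as protein-coding). limma 3.58.1 in R 4.3.3 was fitted with a mean-variance trend to log2(tags + 10) over 6 group means. A two-sided test was made where either group had at least 2 of its 3 libraries above 0, and the call needed an adjusted p (Benjamini-Hochberg, over all genes) below 0.05. Adjusted p-values in the text are from this limma fit. The fit was also run on simulated normal values for genes above 0 in every unstimulated BMDM-WT library. That run did not cover genes with values of 0, such as Slfn1, or region edges that move between libraries. Python 3.11.15, pandas 2.3.3, numpy 2.4.6 and matplotlib 3.10.9 did the rest. Every deposited column belonged to a labelled library.

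The members, the gene lists and the tests were chosen with earlier results of these data known. Named are all 7 members, their neighbours, the 2 genes most like each member (Pearson r over 18 Pol II libraries, among genes with a group mean of at least 50 tags), and, of the pathway lists, the gene with the largest called change in each direction per genotype comparison. Some genes that this rule names are not reported here. Ifnb1 at 1 h was added after its values were seen. Alternatives were a pseudocount of 1, no filter, centring on the median, a common density floor, other windows, the replicate number as a block and leaving out each replicate. Merged regions and the H3K27ac libraries that stood apart were added after seeing the data. Peaks of 1 gene copy can hold reads of another, and mapping filters are not given in the sources used here.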

Additional observations from a re-analysis of the deposited data

Results flagged for a closer look

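The response of Pol II to LPS differed between genotypes for 4 members by the test of the interaction itself, 3 of 7 at 1 h, where 18.4% of all genes were called, and 1 of 7 at 18 h, where 14.8% were, so the share at 18 h is near that of all genes. At 1 h the interaction was -0.61 for Slfn5 and -1.11 for Slfn1, a smaller gain in BMDM-Nur77-KO, and 0.58 for Slfn8, a larger gain. All 3 libraries of BMDM-Nur77-KO lay below all of BMDM-WT at 1 h for Slfn5 and Slfn1, and above them for Slfn8. The Slfn8 value became -0.14 (adjusted p = 0.23) when the whole merged region was read. The interactions of Slfn8 and Slfn1 at 1 h were each called in 7 of 12 settings, and that of Slfn5 in all 12. At 18 h the interaction of Slfn9 was 1.63, with the libraries of the genotypes overlapping at 18 h and apart at 0 h. It was called in 9 of 12 settings, with values from 0.37 to 2.47. For H3K27ac, the interaction of Slfn4 at 1 h was -2.14, and it was called in 5 of 14 settings. At 1 h 0.543% of all genes were called for it. No group had 4 or more libraries, so single libraries were not screened by a gap test.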

How the results depend on the processing

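Of 1494 values of single genes under an alternative, 1322 kept their direction and side of the threshold, 70 lost the call, 49 gained one and 53 changed sign. Counts of members called stayed within 1.5 times in 159 of 198 cases. The cause of each change below was not tested, except where fewer libraries were fitted. Log2 values are meant throughout.

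For Pol II the main counts between genotypes were 0 (0 h), 4 (1 h) and 2 (18 h), and for the interaction 3 (1 h) and 1 (18 h). Centring gave 3 at 0 h and 5 for the interaction at 18 h, no filter gave 1 at 18 h, the replicate block gave 1 at 18 h, and the 500 bp start window gave 2 at 1 h, 1 at 18 h and 1 and 0 for the interactions. Leaving out 1 replicate gave 0 to 3 at 0 h, 0 to 2 at 18 h, and 1 to 3 and 0 to 2 for the interactions. Signs changed for Slfn9 in the interaction at 1 h (0.00016 with the density floor, 0.063 in the gene body, 0.0071 with a pseudocount of 1, -0.15 to 0.17 without 1 replicate), Slfn2 (interaction at 1 h -0.15 centred and -0.034 merged, 18 h -0.012 merged), Slfn8 (1 h -0.35 and interaction -0.14 merged, 18 h -0.15 to 0.10 without 1 replicate), Slfn4 (0 h 0.017 with a pseudocount of 1 and -0.27 to 0.29 without 1 replicate, interaction at 18 h -0.18 to 0.42), Slfn3 (0 h 0.14 and interaction at 18 h -0.031 in the start window) and Slfn1 (interaction at 18 h -0.077 to 0.66).

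For H3K27ac the main counts were 0, 5 and 1, and 1 and 0 for the interactions. The count at 1 h was 3 with a pseudocount of 1 and 0 with BMDM-Nur77-KO 1 h replicate 1 alone, where Slfn2 was at 0.0080 and its interaction at 0.060. The count at 18 h was 0 when centred and 0 with no filter, and that of the interaction at 1 h was 0 when centred, with the density floor, no filter, a pseudocount of 1, the replicate block, the 1000 bp window and that replicate alone. Leaving out 1 library or replicate gave 0 to 1, 0 to 6 and 0 to 3 between genotypes, 3 to 5 (main 5) for LPS at 1 h in BMDM-Nur77-KO, and 0 to 6 and 0 to 2 for the interactions. In these ranges Slfn1 was at -0.12 to 0.63, Slfn2 at -0.13 to 0.010 and Slfn5 at -0.15 to 0.16 at 0 h. At 18 h Slfn9 was at -0.16 to 0.20, Slfn8 at -0.18 to 0.23, Slfn1 at -0.22 to 0.32, Slfn4 at -0.17 to 0.15 and Slfn3 at -0.15 to 0.030. The LPS response in BMDM-Nur77-KO was -0.27 to 0.33 for Slfn4 at 1 h and -0.12 to 0.060 for Slfn2 at 18 h, and the interaction at 18 h was -0.32 to 0.044 for Slfn1 and -0.023 to 0.15 for Slfn3. Centring gave 0.031 for Slfn1 at 18 h and 0.065 for the LPS response of Slfn2 at 18 h in BMDM-Nur77-KO. The density floor gave -0.95 for Slfn1 and -0.12 for Slfn4 at 0 h, and 0.95 and 0.064 for their interactions at 18 h. The merged region gave -0.063 for Slfn1 and 0.095 for Slfn5 at 0 h, 0.14 and 0.13 at 18 h, 1.25 for the LPS response of Slfn2 at 18 h in BMDM-Nur77-KO, and 0.20, 0.011 and 0.038 for the interactions at 18 h of Slfn1, Slfn2 and Slfn5. The 1000 bp window gave -0.059 for the Slfn3 interaction at 18 h.

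Same-numbered libraries deviated together (r over 0.1) in 1 of 45 pairs for Pol II and 0 of 45 for H3K27ac. This does not show whether same-numbered libraries came from the same mouse or culture. The replicate block changed no other count of members by more than 1.5 times. Among all genes, centring moved the share of higher calls between genotypes from 83.6% to 42.7% at 1 h and from 35.9% to 66.2% at 18 h for Pol II (interactions 77.2% to 34.0% and 32.8% to 63.5%, LPS at 1 h 21.3% to 49.3% in BMDM-WT and 24.9% to 48.7% in BMDM-Nur77-KO). For H3K27ac it moved from 60.4% to 42.7%, 60.0% to 45.2% and 29.3% to 53.4% between genotypes, from 18.2% to 35.1% and 26.3% to 57.6% for the interactions and from 35.0% to 45.1% for LPS at 18 h in BMDM-Nur77-KO. The number of all genes called for H3K27ac between genotypes at 1 h was 2188, against 29 without replicate 3 and 6523 without replicate 1, and for Pol II it was 5524, against 3065 without replicate 2 and 2414 in the start window.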

Other observations

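Without stimulation, Pol II over Slfn14, a family member beyond the far end of Slfn3, was higher than over Slfn3 itself (1876 ± 173 against 203 ± 11.3 tags in BMDM-WT, SD, n = 3), although no H3K27ac region was called at the Slfn14 start in any unstimulated library. At 18 h Slfn14 was listed at 0 in all 6 Pol II libraries. The Slfn14 gene spans 11.6 kb. Its 1848, 2062 and 1719 tags in BMDM-WT and 1395, 2402 and 1787 in BMDM-Nur77-KO at 0 h overlapped between genotypes.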
